A study of Mus musculus with 8 samples.

Results

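The TNF superfamily is described here in 8 RNA-seq libraries of a mouse kidney cell line labelled RFB, given in the labels as a fibroblast line. Members were the rows of the deposited gene table whose symbol begins with Tnfsf or Tnfrsf and a digit, or is Tnf, Lta, Ltb, Ltbr, Fas, Fasl, Cd40, Cd27, Cd70, Ngfr, Eda, Edar or Eda2r. The rule found 44 of 22274 genes, 17 for ligands and 27 for receptors, and it used no measured value. TGF-β, the growth factor best known for promoting fibrosis, had been given to all cells. They carried an adenovirus labelled either ad-GFP (4 libraries) or ad-CRE (4 libraries). Cre is the recombinase that cuts out DNA between loxP sites; the allele it was to act on is not described in the labels, while the series text names Suv39h1, a histone H3 lysine 9 methyltransferase, as knocked down. Neither the origin of the line nor whether replicates were separate cultures is given, so the p-values rest on a spread among these libraries that may be technical.

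TNF superfamily ligands are mostly trimers anchored in the membrane that can be cut off as soluble cytokines. Their receptors carry cysteine-rich repeats outside the cell, and signal inside it in one of several ways. Death domain receptors such as Fas and DR5 can recruit FADD and caspase 8 and start apoptosis, whereas other receptors bind TRAF adaptors and switch on NF-kB and MAP kinases. Decoy receptors bind ligand without passing on a death signal. In the kidney, TNF and its receptors, TWEAK with its receptor Fn14, and TRAIL are best known from injury and inflammation of the tubules and interstitium.

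Depth was 15998257 to 22297598 counts per library, of which 13844 to 18861 lay in the 44 genes. Suv39h1 was at 41.5 ± 3.16 CPM (counts scaled to library size) with ad-GFP against 32.5 ± 0.795 CPM with ad-CRE (SD, n = 4), while Cxcl10, the chemokine of the series title, was at 17.4 ± 2.27 and 123 ± 5.93 CPM. Smarca4, which encodes the chromatin remodelling ATPase BRG1 and was singled out after its values were seen, fell 8.40-fold in the same libraries. Markers of several cell types were present beside those of the labelled fibroblast. In ad-GFP Vim, a mesenchymal filament gene, had 1614 ± 36.4 CPM and the epithelial keratin gene Krt8 745 ± 45.5 CPM. Of the listed fibroblast genes beside Vim, Col1a1 had 170 ± 8.36 CPM, Col1a2 41.5 ± 4.96 CPM and Thy1 22.95 ± 0.958 CPM in ad-GFP. Lum was the lowest of that list, with 1 read across all 8 libraries. The 10 fibroblast markers summed to 1835 to 1929 CPM in ad-GFP and 782 to 840 CPM in ad-CRE, and the 9 tubular epithelial markers to 1962 to 2178 and 4694 to 4878 CPM. Endothelial markers (6 genes) summed to 136 to 149 and 59.9 to 67.6 CPM, and myeloid markers (7 genes) to 240.7 to 274 and 172 to 183 CPM. The pan-leukocyte marker Ptprc lay at 12.4 to 18.6 CPM in ad-GFP and 13.1 to 15.96 CPM in ad-CRE. T and NK cell markers (8 genes) summed to 1.93 to 2.65 CPM in ad-GFP and 1.06 to 1.49 CPM in ad-CRE, with Cd3d, Cd3e, Cd3g and Nkg7 at 0 reads in every library. B cell markers (5 genes) summed to 2.80 to 3.46 and 0.0925 to 0.271 CPM, and among them Pax5 had 209 reads in ad-GFP and 1 read in ad-CRE. The part of these cell types in the results was not tested, and fewer cells of a type cannot be told apart from less RNA per cell.

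Receptors moved in both directions and ligands mostly fell. Of the 44 genes, 30 passed the filter on low counts and were tested, 10 for ligands and 20 for receptors. In ad-CRE 7 rose, 14 fell and 9 did not pass (edgeR quasi-likelihood test, Benjamini-Hochberg adjusted over all 13702 genes tested, threshold 0.05). Among ligands 1 rose and 7 fell; among receptors 6 rose and 7 fell. Most genes of this series differ between the groups: 73.1% of all genes tested passed, 36.8% upwards and 36.3% downwards, so the members' share of 70.0% is close to the background. Larger changes, of at least 1 log2 unit, were seen in 1 gene that rose and 10 that fell, where 4.84% and 9.43% of all genes tested did so. In CPM the groups did not overlap in 18 of the 30 genes, against 66.2% of all genes. The median log2 fold change was −0.98 for the ligands and 0.12 for the receptors tested, beside 3.87e-05 for all genes. A weakly expressed gene passes the filter through its higher group, so the counts and medians of the tested members describe those genes and not the whole family. The p-values and the lack of overlap of such genes carry the same limit. In the same libraries the summed fibroblast, endothelial, myeloid, T and NK cell, and B cell markers were lower in ad-CRE. The summed epithelial markers were higher, by the values above. In ad-GFP, Vim made up most of the fibroblast sum, Cd4 of the T and NK cell sum and Pax5 of the B cell sum. Of 9 tested fibroblast markers 8 fell, while Pdgfra rose (log2 fold change 0.36, edgeR adjusted p = 0.0163). Of 9 tubular epithelial markers 8 rose, while Lrp2 fell (−0.55, edgeR adjusted p = 8.11e-13). The part of these markers in the members' changes was not tested.

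**Figure D1:**
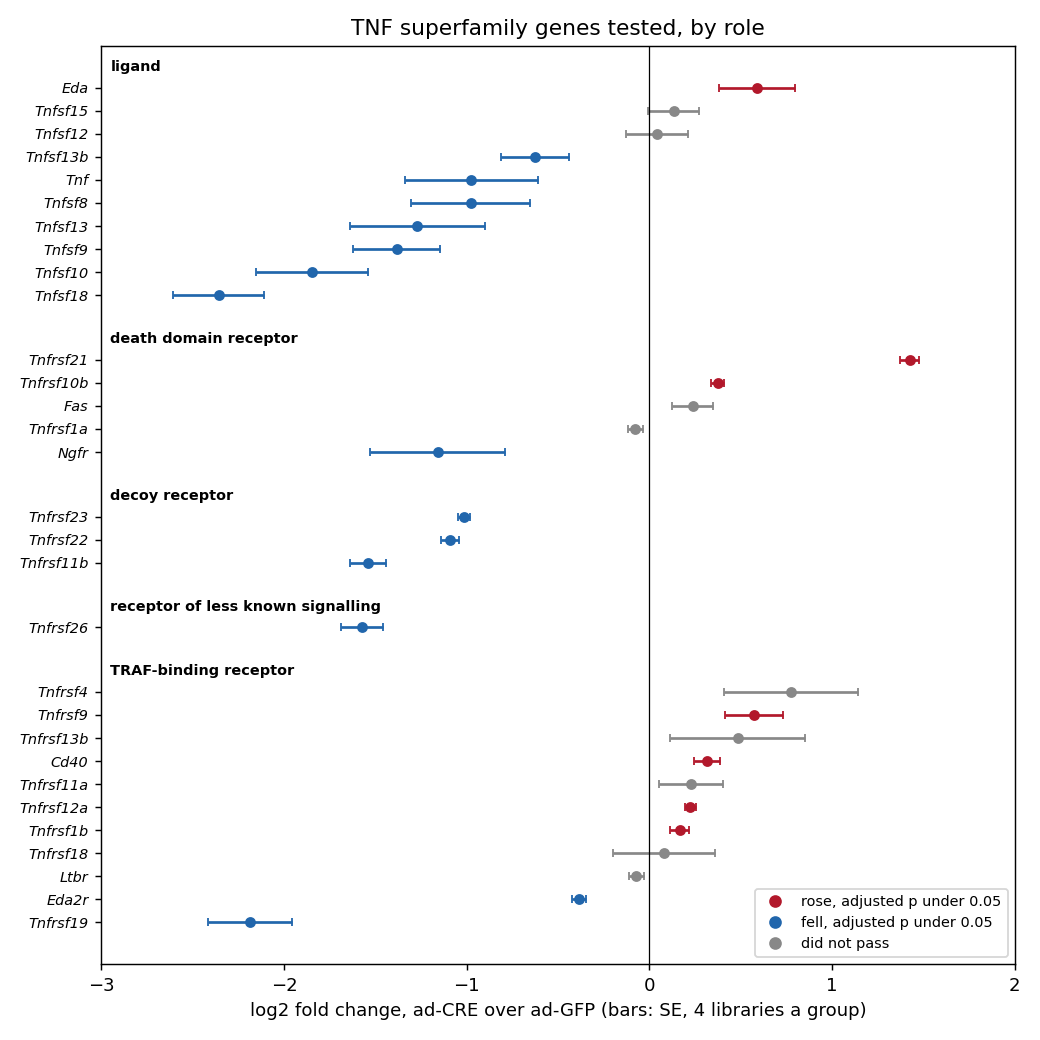
Log2 fold change (ad-CRE over ad-GFP, x axis) with its standard error for the 30 TNF superfamily genes tested, grouped by role, 4 libraries a group; red points rose, blue points fell and grey points did not pass. The 3 decoy receptors and 7 of 10 ligands lie to the left of 0, and Tnfrsf21 lies farthest to the right, at 1.43.

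On the scale of FPKM, which divides by gene length and so allows genes to be compared, receptors were far above ligands. The 27 receptor genes summed to 449.7 ± 1.502 FPKM in ad-GFP and 409 ± 1.44 FPKM in ad-CRE (SD, n = 4), and the 17 ligand genes to 11.2 ± 1.25 and 8.18 ± 0.904 FPKM. Each ad-CRE library was below every ad-GFP library in both sums. Within the receptor sum, the decoy genes Tnfrsf22 and Tnfrsf23 together held 130.4 to 141 FPKM in ad-GFP and 64.7 to 67.5 FPKM in ad-CRE. Their fall was larger than that of the whole receptor sum, so the other receptor genes together were higher in ad-CRE. A group mean of at least 10 FPKM was reached by 9 receptor genes and 0 ligand genes, and one of at least 1 FPKM by 14 and 5. The highest level belonged to Tnfrsf12a, the gene for the TWEAK receptor Fn14, with 158 ± 4.31 FPKM in ad-GFP and 181 ± 2.22 FPKM in ad-CRE (SD, n = 4). Next came the decoy receptor gene Tnfrsf23, with 95.7 ± 2.46 FPKM in ad-GFP and 45.7 ± 1.20 FPKM in ad-CRE. Tnfrsf10b, encoding the TRAIL receptor DR5, had 29.3 ± 1.28 FPKM in ad-GFP and 37.4 ± 0.965 FPKM in ad-CRE, Ltbr, the lymphotoxin β receptor, 30.0 ± 0.555 FPKM in ad-GFP and 28.0 ± 0.859 FPKM in ad-CRE, and Tnfrsf1a, the main TNF receptor, 28.8 ± 1.12 FPKM in ad-GFP and 27.3 ± 1.17 FPKM in ad-CRE; the ranges of the last 2 genes overlap one another. Among ligands Tnfsf12, encoding TWEAK, had the highest mean, with 3.06 ± 1.53 FPKM in ad-GFP and 3.12 ± 0.693 FPKM in ad-CRE, though in ad-GFP libraries 2 and 4 it was at 1.69 and 1.80 FPKM, below Tnfsf9 at 2.04 FPKM in each.

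**Figure D2:**
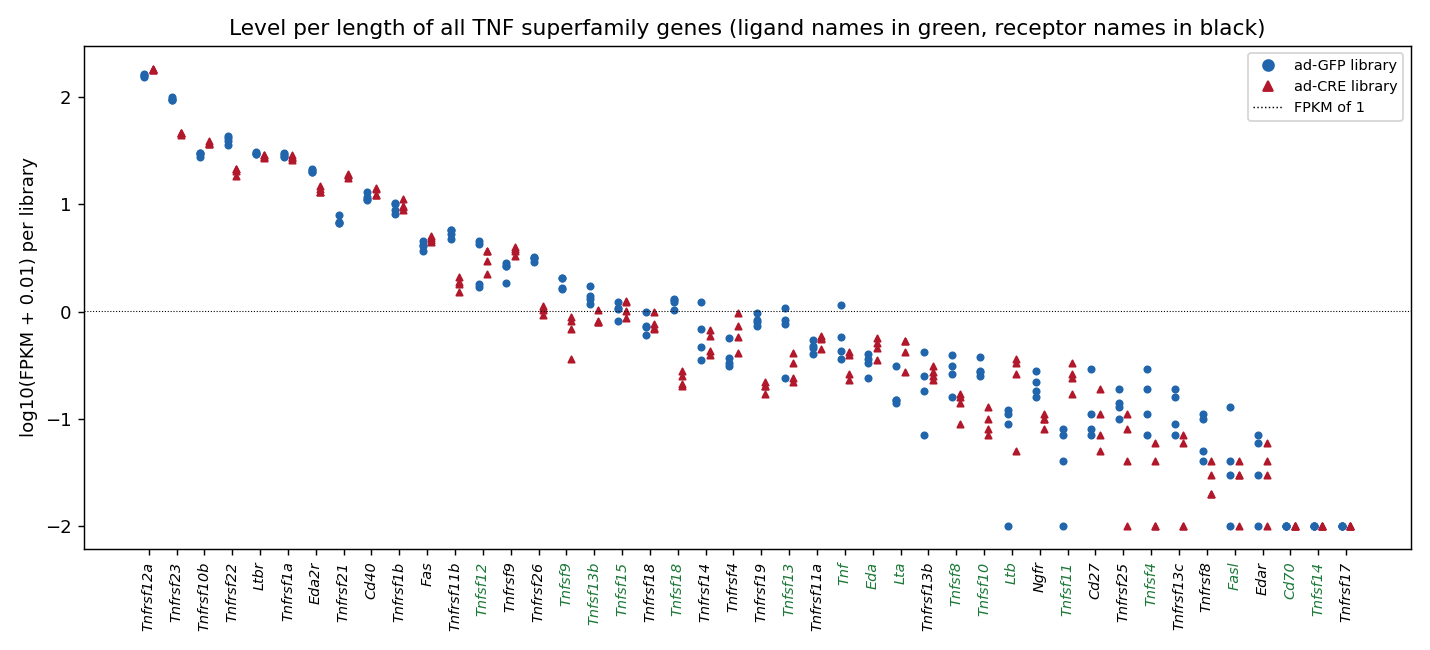
Level of all 44 TNF superfamily genes as log10(FPKM + 0.01) in each of the 4 ad-GFP (blue circles) and 4 ad-CRE libraries (red triangles), ordered by mean FPKM; ligand names are green and receptor names black. Ligands do not reach 10 FPKM, and Cd70, Tnfsf14 and Tnfrsf17 sit at 0 in every library.

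Of the 10 ligand genes tested, 7 fell, with the largest fall in the GITR ligand gene Tnfsf18. Tnfsf18 (ENSMUSG00000066755, GRCm38 chr1:161494655-161505290, plus strand), a costimulator of T cells that some stromal and endothelial cells also make, had 2.08, 2.50, 2.59 and 2.67 CPM across ad-GFP libraries 1 to 4 against 0.407, 0.572, 0.509 and 0.403 CPM across ad-CRE libraries 1 to 4. Its groups did not overlap, and the level was 5.12-fold lower in ad-CRE (log2 fold change −2.36, SE 0.249, adjusted p = 9.06e-10, edgeR). TRAIL, a ligand that can kill cells through DR5 and is induced by interferon, is encoded by Tnfsf10 (ENSMUSG00000039304, GRCm38 chr3:27317028-27342427, plus strand), which had 1.14, 1.28, 1.33 and 1.18 CPM across ad-GFP libraries 1 to 4 against 0.271, 0.468, 0.278 and 0.346 CPM across ad-CRE libraries 1 to 4. All ad-CRE libraries were below all ad-GFP libraries, on 91 and 27 reads in all (log2 fold change −1.85, SE 0.309, adjusted p = 3.96e-06, edgeR). Because Tnfsf10 passed the filter on low counts through its ad-GFP libraries, its p-value and lack of overlap carry that selection. Tnfsf9 (ENSMUSG00000035678, GRCm38 chr17:57105325-57107757, plus strand), the gene for the 4-1BB ligand, had 2.08, 2.60, 2.08 and 2.61 CPM across ad-GFP libraries 1 to 4 against 1.13, 1.04, 0.879 and 0.461 CPM across ad-CRE libraries 1 to 4, again without overlap (log2 fold change −1.38, SE 0.239, adjusted p = 6.73e-06, edgeR); the noncoding gene Gm11110 on the opposite strand overlaps 14.9% of its exonic length.

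The B cell survival factors APRIL and BAFF fell as well. Tnfsf13, for APRIL, had 1.09, 0.357, 1.15 and 1.49 CPM across ad-GFP libraries 1 to 4 against 0.317, 0.468, 0.324 and 0.576 CPM across ad-CRE libraries 1 to 4 (log2 fold change −1.27, SE 0.369, adjusted p = 0.0029, edgeR). Its groups overlapped, because ad-GFP replicate 2 lay among the ad-CRE libraries. Tnfsf13 shares 60.0% of its exonic length with the read-through gene Tnfsfm13 on the same strand and 13.5% with the antisense gene Tnfsf13os, and how such reads were split is unknown here, so the value is uncertain. Tnfsf13b, for BAFF, lay at 2.82 ± 0.470 CPM with ad-GFP against 1.83 ± 0.207 CPM with ad-CRE (SD, n = 4; log2 fold change −0.62, SE 0.186, adjusted p = 0.00364, edgeR) without overlap. Tnf itself, the founding cytokine, and Tnfsf8, the CD30 ligand gene, had log2 fold changes of −0.97 and −0.98 (edgeR adjusted p = 0.0173 and 0.0086) with overlapping groups. Tnf had 12, 36, 16 and 11 reads across ad-GFP libraries 1 to 4 against 15, 8, 7 and 11 across ad-CRE libraries 1 to 4, and the highest of these was ad-GFP replicate 2. Without that library the log2 fold change was −0.48 (edgeR adjusted p = 0.243). Tnf also missed the threshold without ad-CRE replicate 3 (−0.79, edgeR adjusted p = 0.0665) and on both FPKM scales, and Tnfsf8 without ad-GFP replicate 3 (−0.77, edgeR adjusted p = 0.0504).

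Only 1 tested ligand gene rose in these libraries. Eda, for ectodysplasin, the signal that shapes hair, teeth and glands, had 1.66, 1.12, 1.56 and 1.93 CPM across ad-GFP libraries 1 to 4 against 2.81, 2.50, 2.27 and 1.73 CPM across ad-CRE libraries 1 to 4 (log2 fold change 0.59, SE 0.210, adjusted p = 0.0133, edgeR). The groups overlapped, and the call was lost without ad-GFP replicate 2 (0.46, edgeR adjusted p = 0.0663) or ad-CRE replicate 1 (0.48, edgeR adjusted p = 0.0613), and on both FPKM scales. Tnfsf12, for TWEAK, and Tnfsf15, for TL1A, did not pass, with log2 fold changes of 0.04 and 0.13 (edgeR adjusted p = 0.835 and 0.393). Tnfsf12 shares 48.3% of its exonic length with Tnfsfm13.

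Death domain receptors divided, with the largest rise among the 30 tested members, that of Tnfrsf21. Tnfrsf21 (ENSMUSG00000023915, GRCm38 chr17:43016555-43089189, plus strand) encodes DR6, a receptor studied in neurons and T cells that also binds the amyloid precursor protein. It had 28.4, 23.9, 24.3 and 24.2 CPM across ad-GFP libraries 1 to 4 against 68.4, 69.4, 69.4 and 64.3 CPM across ad-CRE libraries 1 to 4. Every ad-CRE library was far above the highest ad-GFP library, and the rise was 2.69-fold (log2 fold change 1.43, SE 0.0519, adjusted p = 6.45e-21, edgeR). Tnfrsf10b (ENSMUSG00000022074, GRCm38 chr14:69767472-69784411, plus strand), for DR5, had 92.7, 94.6, 95.6 and 86.9 CPM across ad-GFP libraries 1 to 4 against 119, 118, 118 and 125 CPM across ad-CRE libraries 1 to 4. The libraries of each group lay close together and the groups did not overlap, with a smaller rise of 1.30-fold (log2 fold change 0.38, SE 0.0350, adjusted p = 6.16e-11, edgeR). Ngfr, for the p75 neurotrophin receptor, was low, with 0.568, 0.714, 0.519 and 0.932 CPM across ad-GFP libraries 1 to 4 against 0.317, 0.312, 0.231 and 0.346 CPM across ad-CRE libraries 1 to 4. It fell without overlap on 50 and 24 reads (log2 fold change −1.16, SE 0.369, adjusted p = 0.00607, edgeR). As Ngfr also passed the filter through its ad-GFP libraries, its p-value and lack of overlap carry that selection.

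Fas and Tnfrsf1a did not pass. Fas, the receptor of Fas ligand, lay at 5.99 ± 0.643 CPM with ad-GFP against 7.06 ± 0.372 CPM with ad-CRE (SD, n = 4), with a log2 fold change of 0.24 (edgeR adjusted p = 0.0554), and passed without ad-GFP replicate 3 (0.30, edgeR adjusted p = 0.0233) or without ad-CRE replicate 3 (0.27, edgeR adjusted p = 0.0483). Tnfrsf1a, through which TNF acts in most cells, lay at 61.3 ± 2.17 CPM with ad-GFP against 58.1 ± 1.94 CPM with ad-CRE (SD, n = 4), with a log2 fold change of −0.08 (edgeR adjusted p = 0.0989). It passed when only total counts set the scale (−0.10, edgeR adjusted p = 0.0267) and with the stricter filter of 5 CPM in 4 libraries (−0.10, edgeR adjusted p = 0.0293).

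All 3 decoy receptors fell, and they include some of the most abundant members. Tnfrsf23 (ENSMUSG00000037613, GRCm38 chr7:143665809-143685872, minus strand), which encodes a mouse TRAIL decoy receptor, had 196, 192, 194 and 209 CPM across ad-GFP libraries 1 to 4 against 99.8, 96.2, 97.4 and 97.4 CPM across ad-CRE libraries 1 to 4. It fell 2.02-fold, with every ad-CRE library far below every ad-GFP library (log2 fold change −1.01, SE 0.0321, adjusted p = 1.79e-22, edgeR). Its neighbour and close relative Tnfrsf22 (ENSMUSG00000010751, GRCm38 chr7:143634806-143649661, minus strand), for another TRAIL decoy, had 114, 106, 105 and 130.2 CPM across ad-GFP libraries 1 to 4 against 52.2, 53.8, 52.2 and 55.2 CPM across ad-CRE libraries 1 to 4. The fall was 2.13-fold, again without overlap (log2 fold change −1.09, SE 0.0499, adjusted p = 2.16e-18, edgeR). Tnfrsf11b (ENSMUSG00000063727, GRCm38 chr15:54250619-54278484, minus strand) encodes osteoprotegerin, a secreted receptor that catches RANKL and TRAIL. It had 13.3, 16.02, 14.7 and 15.96 CPM across ad-GFP libraries 1 to 4 against 5.29, 4.32, 5.09 and 5.93 CPM across ad-CRE libraries 1 to 4, a 2.91-fold fall without overlap (log2 fold change −1.54, SE 0.1003, adjusted p = 1.43e-14, edgeR).

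Tnfrsf26, a receptor gene whose signalling is little known, lies beside both TRAIL decoys and fell as well. Tnfrsf26 (ENSMUSG00000045362, GRCm38 chr7:143607659-143628722, minus strand) had 9.85, 9.64, 9.80 and 8.76 CPM across ad-GFP libraries 1 to 4 against 3.30, 3.49, 3.15 and 2.82 CPM across ad-CRE libraries 1 to 4 (log2 fold change −1.57, SE 0.116, adjusted p = 2.79e-13, edgeR). The groups did not overlap. The 3 genes stand in a row within 78214 bases of chromosome 7, at the edge of an imprinted domain. Of their transcripts, Tnfrsf22 shares 17.3% of its words of 50 bases with Tnfrsf23, and Tnfrsf23 shares 719 of its own 3993 with Tnfrsf22, so reads from those stretches cannot be assigned by sequence and the single values are uncertain to that extent. Tnfrsf26 shares 0 such words with either. Antisense gene E230032D23Rik overlaps 4.14% of the exonic length of Tnfrsf23 and 3.33% of that of Tnfrsf26. Of 10 tested genes within 250 kb that are not members, looked up after the fall had been seen, 3 rose, 3 fell and 4 did not pass. Those that fell were Slc22a18, for an organic cation transporter, by a log2 fold change of −1.65, Cdkn1c, for the cell cycle inhibitor p57, by −1.09, and Cars, for cysteinyl-tRNA synthetase, by −0.39 (edgeR adjusted p = 5.29e-11, 3.68e-12 and 3.64e-12), so falls as large as those of the 3 receptor genes were not confined to them. Cars and Osbpl5, for an oxysterol-binding protein, are the next genes on either side, and Osbpl5 did not pass with 0.08 (edgeR adjusted p = 0.0689).

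**Figure D3:**
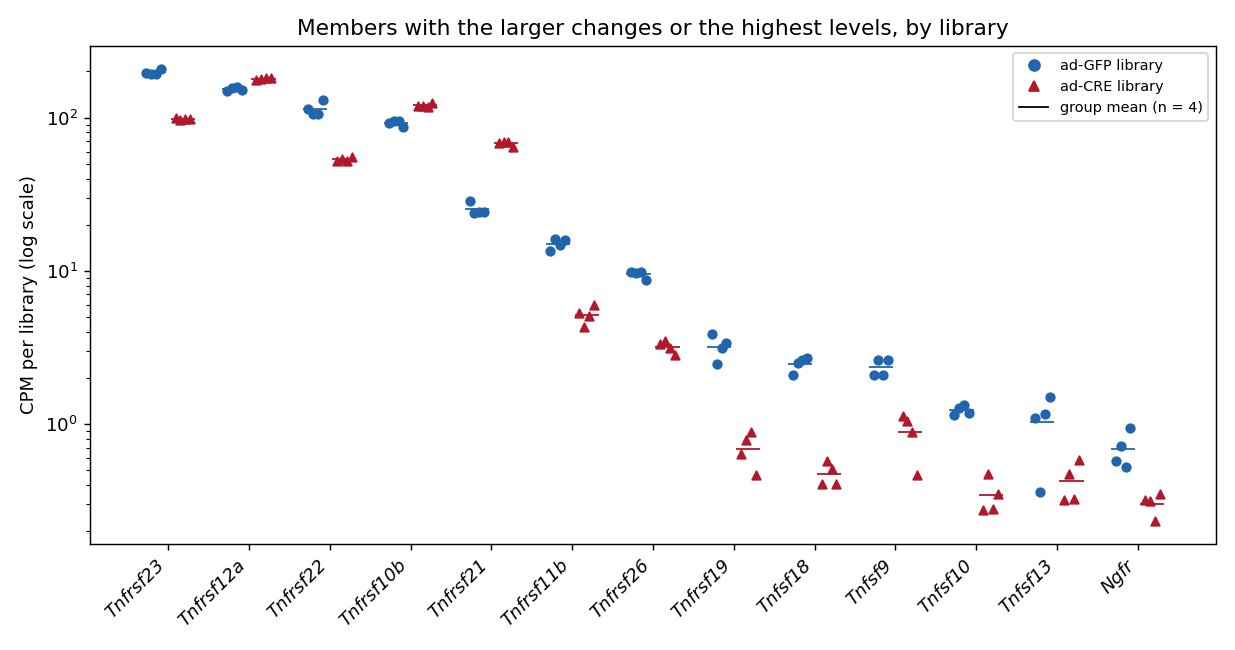
CPM on a log axis in each ad-GFP (blue circles) and ad-CRE library (red triangles) for the 13 members that changed by at least 1 log2 unit or had the highest FPKM; short lines are group means, n = 4. The 3 neighbours Tnfrsf22, Tnfrsf23 and Tnfrsf26 are lower in all ad-CRE libraries, Tnfrsf21 is higher in all of them, and Tnfsf13 is the gene of the plot whose groups overlap.

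Receptors that bind TRAF adaptors showed small rises and 1 large fall. Among 11 that were tested, 4 rose, 2 fell and the other 5 missed the threshold. Tnfrsf12a (ENSMUSG00000023905, GRCm38 chr17:23675445-23677468, minus strand), for Fn14, had 149, 157, 158 and 152 CPM across ad-GFP libraries 1 to 4 against 177, 179, 182 and 181 CPM across ad-CRE libraries 1 to 4. The groups did not overlap although the rise was only 1.17-fold (log2 fold change 0.22, SE 0.0291, adjusted p = 5.55e-08, edgeR). Tnfrsf9, for 4-1BB, a costimulatory receptor of T cells, rose by 0.57 on the log2 scale, from 3.49 ± 1.004 to 5.16 ± 0.452 CPM (SD, n = 4). Cd40, the receptor through which helper T cells activate other cells, rose by 0.31, and Tnfrsf1b, for the second TNF receptor, by 0.17 (edgeR adjusted p = 0.000281 and 0.00475). Both missed the threshold on the deposited FPKM values: on the log2(FPKM + 1) scale Cd40 had 0.14 (limma-trend adjusted p = 0.0898) and Tnfrsf1b 0.06 (limma-trend adjusted p = 0.52).

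Tnfrsf19, for the receptor TROY, which is expressed in epithelial and neural progenitors, fell the most of the 20 receptor genes tested. Tnfrsf19 (ENSMUSG00000060548, GRCm38 chr14:60963875-61046490, minus strand) had 3.83, 2.45, 3.11 and 3.35 CPM across ad-GFP libraries 1 to 4 against 0.633, 0.780, 0.879 and 0.461 CPM across ad-CRE libraries 1 to 4. The highest ad-CRE library was below the lowest ad-GFP library, on 237 and 56 reads in all (log2 fold change −2.19, SE 0.231, adjusted p = 8.61e-10, edgeR). Eda2r, for a receptor of ectodysplasin A2 and a known p53 target, was at 81.5 ± 2.46 CPM with ad-GFP against 62.4 ± 2.004 CPM with ad-CRE and fell (SD, n = 4; log2 fold change −0.39, SE 0.0387, adjusted p = 2.95e-10, edgeR). Its change was −0.59 on the log2(FPKM + 0.1) scale. Ltbr had −0.07 and did not pass (edgeR adjusted p = 0.111); scaling by total counts (−0.10, edgeR adjusted p = 0.0279), the stricter filter (−0.10, edgeR adjusted p = 0.0318) and both FPKM scales (−0.10, limma-trend adjusted p = 0.0211 and 0.0219) carried it past the threshold.

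The other 4 genes of this kind were low and did not pass. Tnfrsf11a, for the RANKL receptor RANK, had 0.23, Tnfrsf13b, for TACI, 0.48, Tnfrsf18, for GITR, 0.08 and Tnfrsf4, for OX40, 0.78 on the log2 scale (edgeR adjusted p = 0.242, 0.238, 0.8 and 0.0597). Tnfrsf4 passed without ad-GFP replicate 3 (1.0002, edgeR adjusted p = 0.031), without ad-CRE replicate 3 (0.96, edgeR adjusted p = 0.0237) and on both FPKM scales (0.25 and 0.62). Tnfrsf18 shares 27.2% of its exonic length with the antisense gene Gm16008.

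Ligands and their receptors were set side by side. Of 28 ligand and receptor pairs listed from general knowledge, 12 had both genes tested and 7 had both past the threshold. Both genes fell in 3, both rose in 0, and in 4 they went opposite ways. Since 73.1% of all genes tested passed, many pairs of any kind would have both genes past the threshold. The counts of pairs were not tested against that share. The 3 pairs in which both fell are TRAIL with its decoys, Tnfsf10 (−1.85) with Tnfrsf11b (−1.54), Tnfrsf22 (−1.09) and Tnfrsf23 (−1.01). The opposite pairs are Tnfsf10 with the death receptor Tnfrsf10b (0.38), Tnfsf9 (−1.38) with Tnfrsf9 (0.57), Tnf (−0.97) with Tnfrsf1b (0.17) and Eda (0.59) with Eda2r (−0.39). The same ligand gene, Tnfsf10, with 27 reads in ad-CRE, is in all 3 pairs that fell and in an opposite pair. These pairs are therefore not separate observations. For TWEAK the receptor gene rose and the ligand gene did not pass, and for GITR the ligand gene fell and the receptor gene did not pass; the difference between ligand and receptor was not tested in any pair.

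A total of 14 members had too few reads to be tested, with at most 16 reads in any library. Cd70, Tnfsf14 (LIGHT) and Tnfrsf17 (BCMA) had 0 reads in all 8 libraries, which allows up to 0.136 to 0.186 CPM per library by the limit of 3 counts, for counting error only. Tnfsf11, for the osteoclast factor RANKL, had 3, 3, 0 and 1 reads across ad-GFP libraries 1 to 4 against 16, 10, 8 and 10 across ad-CRE libraries 1 to 4; every ad-CRE library was above every ad-GFP library. Lta, for lymphotoxin α, had 4, 8, 3 and 3 reads across ad-GFP libraries 1 to 4 against 16, 14, 8 and 10 across ad-CRE libraries 1 to 4, so that the groups meet at 8 reads. Ltb, for lymphotoxin β, had 2, 2, 2 and 0 reads across ad-GFP libraries 1 to 4 against 9, 7, 1 and 5 across ad-CRE libraries 1 to 4, and Tnfsf4, for the OX40 ligand, 7, 2, 9 and 3 reads across ad-GFP libraries 1 to 4 against 2, 0, 0 and 1 across ad-CRE libraries 1 to 4. With no filter beyond 1 read, edgeR called Tnfsf11 (log2 fold change 2.48, adjusted p = 0.000114), Lta (1.30, adjusted p = 0.0129) and Ltb (1.71, adjusted p = 0.0406) higher. It called Tnfsf4 (−2.71, adjusted p = 0.00364) and the BAFF receptor gene Tnfrsf13c (−2.04, adjusted p = 0.0314) lower, on 3 and 4 reads in ad-CRE. At so few reads the fitted values depend on the prior count. Under that setting 4 ligand genes rose instead of 1. The other 6 were Fasl, Cd27, Edar, Tnfrsf8, Tnfrsf14 and Tnfrsf25, with 9, 23, 16, 20, 73 and 21 reads in all, and none of them passed there. In the authors' deposited table, 9 members are higher and 14 lower at an FDR under 0.05. The share of all genes that pass in that table was not counted. Among the 9 are Tnfsf11 (authors' FDR 0.00167) and Lta (authors' FDR 0.0402), and among the 14 is Tnfsf4 (authors' FDR 0.0201), none of them tested here. Tnf, which fell here, does not pass there (authors' FDR 0.0609).

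By position, members within 500 kb of one another formed 9 groups. Several groups held genes that were not tested, so outcomes could be compared only in part. In no group did tested genes pass in opposite directions. On chromosome 17, Tnf, Lta and Ltb share 10913 bases; Tnf fell while the few reads of Lta and Ltb were more numerous in ad-CRE. Also on chromosome 17, Tnfsf9 fell beside Cd70 and Tnfsf14, which had 0 reads. On chromosome 1, Tnfsf18 fell and its neighbours Tnfsf4 and Fasl were not tested. On chromosome 4, Tnfsf8 fell beside Tnfsf15, which did not pass. Ltbr and Tnfrsf1a, which share 129863 bases of chromosome 6 with Cd27, had nearly equal log2 fold changes of −0.07 and −0.08. Among the groups in which every gene was tested, only the row of Tnfrsf26, Tnfrsf22 and Tnfrsf23 had every gene past the threshold. Of all genes tested 73.1% passed, and the row was not tested against that share.

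Promoter sequence was available for 35 of the 44 genes in RefSeq (GRCm38.p6), as 250 bases before to 50 after the start of transcription. The genes without an entry are Cd40, Cd70, Tnfrsf10b, Tnfrsf11b, Tnfrsf22, Tnfrsf26, Tnfsf12, Tnfsf4 and Tnfsf9. Both strands were searched for the NF-kB motif, the interferon-stimulated response element (ISRE, searched as GAAA, then 2 bases of any kind, then GAAA), the STAT motif called GAS (TTCNNNGAA) and AP-1 (TGANTCA). Of all 32851 promoters, 8.46%, 3.44%, 8.30% and 7.81% hold them, and of the 39 promoters of members 4, 4, 9 and 7 do. Matches describe letters only, and were not tested against chance. Shown here are the promoters of the tested receptor that rose the most, of the abundant decoy that fell, of the 4-1BB gene that rose with 3 of the motifs at its second start, and of the BAFF gene that fell with an ISRE, 5′ to 3′ on the gene's strand with matches in capitals.
Tnfrsf21 (chr17:43016305-43016604, plus strand): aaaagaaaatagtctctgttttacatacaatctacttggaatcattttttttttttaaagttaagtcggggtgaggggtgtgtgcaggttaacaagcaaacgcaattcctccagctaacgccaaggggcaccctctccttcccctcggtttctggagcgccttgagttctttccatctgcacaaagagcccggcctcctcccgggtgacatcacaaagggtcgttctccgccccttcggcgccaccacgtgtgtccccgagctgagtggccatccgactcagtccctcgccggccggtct
Tnfrsf23 (chr7:143685826-143686125, minus strand): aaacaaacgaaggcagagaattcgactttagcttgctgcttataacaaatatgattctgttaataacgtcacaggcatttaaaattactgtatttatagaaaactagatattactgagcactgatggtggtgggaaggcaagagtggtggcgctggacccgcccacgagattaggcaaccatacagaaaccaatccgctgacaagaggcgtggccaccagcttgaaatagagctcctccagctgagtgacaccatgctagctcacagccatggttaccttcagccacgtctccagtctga
Tnfrsf9 (chr4:150927749-150928048, plus strand): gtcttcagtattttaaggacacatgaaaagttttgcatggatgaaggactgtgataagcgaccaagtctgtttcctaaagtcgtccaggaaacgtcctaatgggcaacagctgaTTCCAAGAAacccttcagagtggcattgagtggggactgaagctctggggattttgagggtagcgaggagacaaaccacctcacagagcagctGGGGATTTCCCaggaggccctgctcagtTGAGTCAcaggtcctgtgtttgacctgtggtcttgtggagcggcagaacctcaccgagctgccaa
Tnfsf13b (chr8:10006383-10006682, plus strand): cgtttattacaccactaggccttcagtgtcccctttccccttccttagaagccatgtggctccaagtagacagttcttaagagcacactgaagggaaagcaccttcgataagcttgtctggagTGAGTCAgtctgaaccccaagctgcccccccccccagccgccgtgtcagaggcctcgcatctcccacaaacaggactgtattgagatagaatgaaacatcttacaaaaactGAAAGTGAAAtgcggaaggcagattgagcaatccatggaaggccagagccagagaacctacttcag
Neither Tnfrsf21 nor Tnfrsf23 holds any of the 4 motifs in this window. In Tnfrsf9 the GAS match begins 136 bases before the start of transcription, an overlapping pair of NF-kB matches 43 and 42 bases before it, and the AP-1 match 15 bases before it. Tnfsf13b holds an AP-1 match from 127 bases and an ISRE match from 16 bases before its start. An ISRE was also matched in Tnfrsf1b, which rose, and in Tnfrsf14 and Tnfrsf17, which were not tested.

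Inside the cell, more listed genes of TNF receptor signalling and ligand shedding rose than fell. Of 54 listed genes 53 were tested, and 29 rose, 10 fell and 14 did not pass, a share of 73.6% called beside 73.1% for all genes. By direction, 36.8% of all genes tested rose and 36.3% fell. Neither these counts nor those of the shorter lists below were tested against the shares of all genes. The lists were chosen with earlier results of these data known, so their counts are not independent of the data. On the deposited FPKM values 23 of the listed genes rose with a pseudocount of 1 and 22 with one of 0.1. The NF-kB factors and their inhibitors rose in 7 of 9 and fell in 0 of 9, with a median log2 fold change of 0.72. Nfkbia, for the inhibitor IκBα that NF-kB itself induces, rose by 1.73, from 12.2 ± 1.76 to 40.4 ± 1.90 CPM (SD, n = 4), and Nfkb1, for p105 and p50, by 0.72 (edgeR adjusted p = 9.21e-20 and 5.98e-19). Rela, for p65, did not pass, at 0.04, and had −0.02 on both FPKM scales.

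Of the 12 genes for ubiquitin ligases, deubiquitinases and their partner proteins, 7 rose and 2 fell. Birc3, for cIAP2, which shields receptor complexes from caspase 8, rose from 12.5 ± 0.614 to 27.1 ± 0.774 CPM (n = 4, SD; log2 fold change 1.12, SE 0.0625, adjusted p = 3.48e-16, edgeR). Tnip1, a partner of A20, rose by 0.61. Tnfaip3, for A20 itself, rose by 0.27 in counts (edgeR adjusted p = 1.66e-09) but had −0.02 on both FPKM scales, so its direction depends on the unit. The list of 11 kinases and their partner proteins split evenly, with 4 that rose and 4 that fell. Map3k14, for NIK, the kinase of the non-canonical pathway, rose by 0.98 (edgeR adjusted p = 2.51e-15). Chuk, for IKKα, and Tab2, for an adaptor of the kinase TAK1, fell, with −0.35 and −0.09 (edgeR adjusted p = 2.22e-10 and 0.0067). Tab2 missed the threshold without ad-CRE replicate 3 (−0.06, edgeR adjusted p = 0.0614).

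TRAF adaptor genes rose in 4 of 7 and fell in 2. The falls were the largest changes of the list: Traf1, itself a target of NF-kB, had −1.16 and Traf5 −0.89 on the log2 scale, both without overlap (edgeR adjusted p = 6.35e-05 and 2.99e-06), and are named here outside the rule for named genes, after their values were seen. Traf6 and Traf3 rose by 0.39 and 0.31 (edgeR adjusted p = 3.2e-09 and 6.12e-10). Traf7, the most abundant per length, rose by 0.09 in counts (edgeR adjusted p = 0.00698), a change that was 0.01 on both FPKM scales and did not pass there or with scaling by total counts (0.06, edgeR adjusted p = 0.0537). Among the 9 tested death domain adaptors, caspases and inhibitors, 2 rose, 2 fell and 5 did not pass, and changes were small, between −0.28 and 0.32. Casp8, for the caspase that death receptors activate, rose by 0.32, and Bid, its substrate that links to mitochondria, by 0.27 (edgeR adjusted p = 1.61e-10 and 1.87e-06). All 5 genes of ligand and receptor shedding rose, among them Adam17, for the protease that releases TNF, by 0.52, and Timp3, for its inhibitor, by 0.33 (edgeR adjusted p = 3.29e-13 and 2.09e-13).

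**Figure D4:**
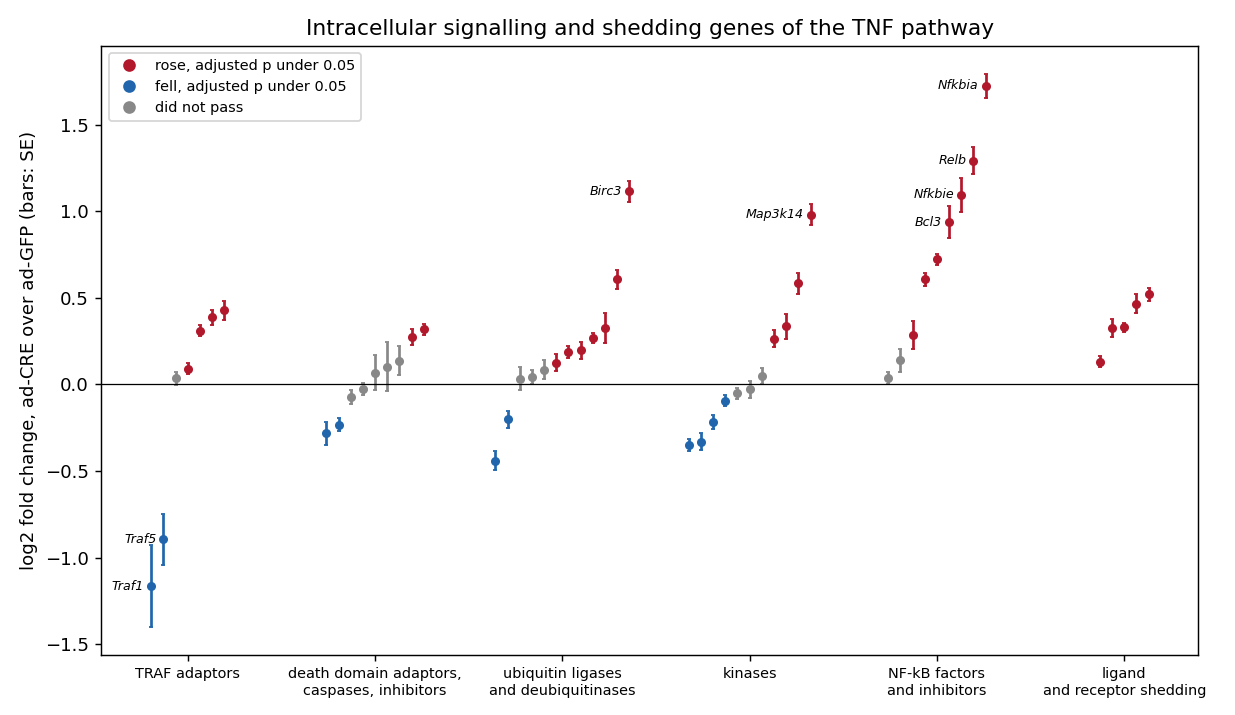
Log2 fold change (ad-CRE over ad-GFP, y axis) with its standard error for the 53 signalling and shedding genes tested, in 6 lists along the x axis, 4 libraries a group; red rose, blue fell, grey did not pass. The NF-kB list reaches 1.73 with Nfkbia and holds no blue point, and the 5 shedding genes are all red.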

How the data were processed

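RNA-seq of 8 libraries was used, 4 ad-GFP and 4 ad-CRE. Per the file headers, the deposited table holds the authors' gene counts, their FPKM values, and a log2 fold change with a p-value and FDR for each gene. The submitters' processing notes name the GRCm38 and mm10 builds; the aligner, the counter and the strand setting are not stated there.

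Counts were tested with edgeR 4.0.16 (R 4.3.3): TMM scaling, filterByExpr with a minimum count of 10, and the quasi-likelihood test on the group, adjusted by Benjamini-Hochberg over 13702 of 22274 genes. CPM use TMM-scaled library sizes. Depth was 15998257 to 22297598 counts. Replicate pairs gave a chi-square of 1.71 to 3.24 per degree of freedom, above sampling noise. Gene coordinates are from GENCODE M21. Alternatives were other scalings and filters, DESeq2 1.42.0, limma 3.58.1 (voom, and limma-trend on log2 FPKM with a pseudocount of 1 or 0.1, which understate changes of low genes), a replicate block and leaving out each library. The fitting was tested on simulated data, with 49 to 50 of 13602 genes changed at each size. Changes of 0.25, 0.5, 1 and 2 log2 units were found in 64%, 82%, 96% and 100% of them. Of all calls there, 6.59% were false. Far fewer genes were changed than differ in this series, so these rates need not hold here.

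Every member is named. Values per library are given for members past the threshold by at least 1 log2 unit and for the 3 highest by FPKM, and, of each signalling list, the 2 genes of smallest p and the 1 of highest mean expression are named. Members and lists were chosen with earlier results of these data known.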

Additional observations from a re-analysis of the deposited data

Results flagged for a closer look

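The highest or lowest library stood apart from the other 3 of its group in 2 of 92 groups of 4 examined; chance gives about 1 in 20. Tnfrsf21 was at 28.4 CPM in ad-GFP replicate 1, against 23.9 to 24.3 CPM in the other ad-GFP libraries and at least 64.3 CPM in ad-CRE. Bid was at 47.6 CPM in ad-GFP replicate 4, against 51.5 to 52.0 CPM in the others.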

How the results depend on the processing

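Over 17 alternatives, 465 of 494 values of single members kept their direction and side of the threshold, 13 lost the call, 12 gained it and 4 changed sign. Ligand genes that rose numbered 1 in the reported fit, 4 with no filter beyond 1 read, 0 with the filter of 5 CPM in 4 libraries, 0 on each FPKM scale, and 0 to 3 with 1 library left out (0 without ad-CRE replicate 1; 3 without ad-GFP replicate 1, 3 or 4 or ad-CRE replicate 3). Ligand genes that fell numbered 7, 0 with the filter of 5 CPM, which tests 1 ligand gene, and 6 to 7 with 1 library left out. With 1 library left out, 6 to 8 receptor genes rose and 7 fell, 28 to 30 signalling genes rose and 10 to 11 fell, and 9768 to 9983 genes passed in all. With 1 library left out, the log2 fold change of Tnfsf12 ranged from −0.0598 (without ad-GFP replicate 2) to 0.14 and that of Tnfrsf18 from −0.0442 (without ad-CRE replicate 1) to 0.26. On the FPKM scales with pseudocounts of 1 and 0.1, Tnfaip3 turned to −0.0224 and −0.0228 and Rela to −0.0154 and −0.0158; the cause was not tested. With scaling by total counts, 4734 genes rose and 5287 fell, against 5047 and 4975. Replicate numbers did not pair the libraries (correlation of deviations −0.07 to 0.07); with a replicate block 1 ligand gene rose and 7 fell, 6 receptor genes rose and 7 fell, 30 signalling genes rose and 10 fell, and 9963 genes passed. Of 17 ligand genes 7, and of 27 receptor genes 7, had too few reads to be tested.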
